A study of Drosophila melanogaster with 3 samples.

Results

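Bdp1, Brf, Trf, Pbp45, Pbp49, Pbp95, Maf1 and La are 8 Drosophila genes that encode factors of RNA polymerase III (Pol III) transcription. They were chosen by what their products do, but with earlier results of these data known. They are 8 of the 13968 protein-coding genes examined. The promoters of these genes were described by the binding of Bdp1 itself, which was mapped in whole embryos with chromatin immunoprecipitation and sequencing (ChIP-seq). The embryos, of both sexes and 0 to 24 h old, came from a transgenic line, CG9305-GFP, in which Bdp1 (CG9305) carries GFP at its C terminus, and the chromatin, sheared to 200 to 800 bp, was precipitated with an antibody to GFP. All 3 biological replicates share that line, antibody, stage and tissue, so there was 1 group and no second condition. How the insertion was built, what drives it, and whether it carries the Bdp1 promoter is not given in the sources used here. A whole embryo mixes many cell types, so fewer cells with Bdp1 at a promoter and less Bdp1 per cell cannot be told apart.

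Pol III transcribes the genes for tRNA, for 5S rRNA and for small RNAs such as U6. It is placed on its genes by TFIIIB, which in the fly holds Bdp1, the TFIIB-related factor Brf and, at many genes, the TBP-related factor Trf in the place that TBP takes in other animals. Pbp45, Pbp49 and Pbp95 are the subunits of the fly proximal sequence element binding protein, the counterpart of human SNAPc, which binds upstream of snRNA genes and recruits the polymerase machinery there. Maf1 is a conserved repressor of Pol III that acts downstream of nutrient and stress signalling. La binds the run of U at the 3' end of new Pol III transcripts and protects them. The genes for these factors are themselves ordinary protein-coding genes, read by RNA polymerase II.

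The stretches that hold the finding lie upstream of Bdp1, Brf and La. They and a stretch upstream of Trf are printed 5' to 3' on the strand of the named gene, from the NCBI copy of the dm6 assembly. At Bdp1 and Brf each runs over the whole space up to the 5' end of a gene that is transcribed the other way, CG6565 and sds22. At La it is the 200 bases next to the 5' end. Capitals mark the 11 bases centred on the summit of the Bdp1-GFP peak. The Trf stretch, the whole space up to MED20, is shown beside them as one with no summit, and so has no capitals. The Bdp1 stretch is chr2L:13373891-13374018 on the minus strand, 128 bases with 26.6% G or C. The Brf stretch is chr3R:17391338-17391593 on the minus strand, 256 bases with 33.2% G or C. The La stretch is chr2L:20350013-20350212 on the minus strand, 200 bases with 37.5% G or C. The Trf stretch is chr2L:8072849-8072894 on the plus strand, 46 bases with 28.3% G or C. In each, the last base is the one before the 5' end of the named gene.
Bdp1: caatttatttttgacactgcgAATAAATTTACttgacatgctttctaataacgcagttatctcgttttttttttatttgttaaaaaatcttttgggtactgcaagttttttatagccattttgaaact
Brf: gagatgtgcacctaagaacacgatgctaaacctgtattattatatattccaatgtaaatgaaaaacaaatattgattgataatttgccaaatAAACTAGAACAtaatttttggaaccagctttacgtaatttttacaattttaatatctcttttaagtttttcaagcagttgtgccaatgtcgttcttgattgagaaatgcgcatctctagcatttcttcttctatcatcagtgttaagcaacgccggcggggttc
La: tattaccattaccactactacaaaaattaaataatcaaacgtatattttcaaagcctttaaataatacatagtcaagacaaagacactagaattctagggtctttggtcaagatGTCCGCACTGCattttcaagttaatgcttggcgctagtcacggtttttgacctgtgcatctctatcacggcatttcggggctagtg
Trf: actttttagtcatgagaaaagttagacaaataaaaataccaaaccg

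Bdp1-GFP peaks overlapped the promoter windows of Bdp1, Brf and La, and the authors' thresholded peak list held none at Trf, Pbp45, Pbp49, Pbp95 or Maf1. A gene was counted when a peak overlapped, by at least 1 bp, the 100 bp on either side of any annotated transcript 5' end. In the authors' optimal list, which rests on all 3 replicates together, 3 of the 8 genes had a peak (37.5%, exact Clopper-Pearson 95% interval 8.52 to 75.5%), against 13.7% of all protein-coding genes (1913 of 13968). The share of all genes lies inside that interval, which covers counting error over 8 genes only. It treats the 8 genes as random draws, which they were not, so it is no test of the set. In each replicate the strongest relaxed peaks were also taken, as many as there are optimal peaks. With these, 3 genes had a peak in replicate 1 against 13.2% of all genes, 2 in replicate 2 against 11.5%, and 3 in replicate 3 against 15.1%, a mean of 2.67 ± 0.577 genes (SD, n = 3). Bdp1 and Brf were counted in every replicate, and La was missing in replicate 2. In replicates 1 and 3 the Bdp1 peak began 84 and 96 bp upstream of the 5' end and entered the window by 17 and 5 bp, so with a window of 50 bp Bdp1 was counted in replicate 2 only, and the mean was 2 genes.

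Each replicate also has a relaxed list of 30000 peaks, in which weak peaks and background stand together. A relaxed peak lay in the window of 4 genes in replicate 1, 5 in replicate 2 and 5 in replicate 3, against 36.8%, 36.6% and 40.8% of all protein-coding genes. Bdp1, Brf, La and Pbp45 had a relaxed peak in all 3 replicates, which is 4 of 8 genes, against 21.3% of all genes. Pbp49 and Maf1 had none in any replicate, 2 of 8 (25.0%) against 43.4% of all genes.

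**Figure D1:**
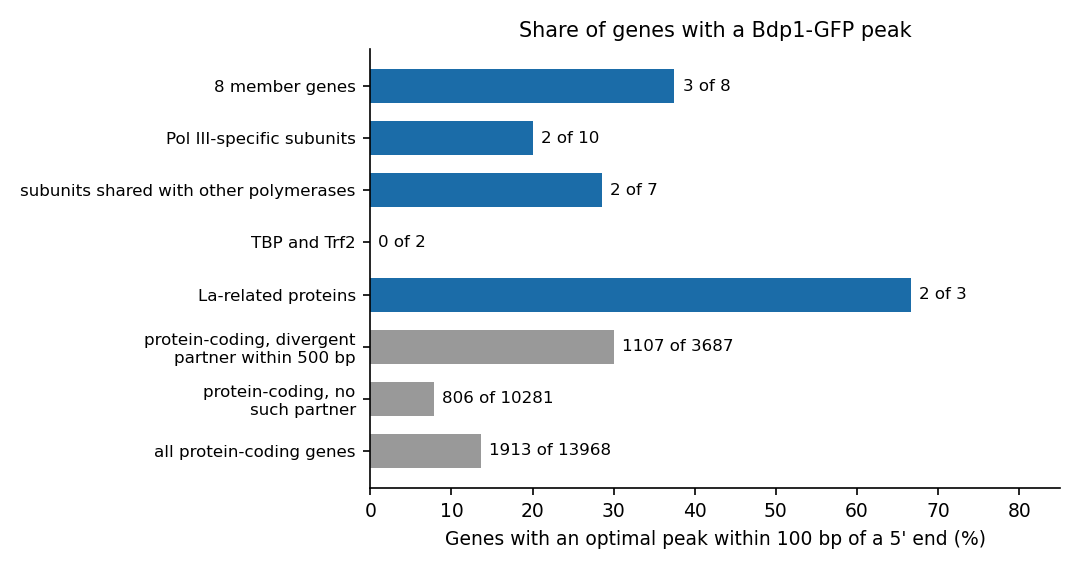
Share of genes with an optimal Bdp1-GFP peak within 100 bp of a 5' end, in percent, for the 8 genes, 4 lists of related genes and, in grey, protein-coding genes as a whole and by whether another gene starts within 500 bp in the opposite direction. The bars stand for 3 of 8 genes at the top and 1913 of 13968 at the bottom, and the numbers of genes stand beside each bar.

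Bdp1 (FBgn0032512, chr2L:13371427-13373890, minus strand) had the strongest peak of the 8 genes in its window, a peak that also lies at the 5' end of CG6565. The optimal peak, chr2L:13373779-13374193, is intergenic at the summit, and was rank 149 in the pooled list with a pooled signal of 976, where the optimal peaks run between 87.0 and 19022 with a median of 142. The peak signal was 275 in replicate 1, 377 in replicate 2 and 340 in replicate 3, which were ranks 154, 156 and 135 of 30000. Since the scale of the signal between lists is not stated, each value was divided by the median that the optimal peaks had in that replicate. This ratio was 6.32, 6.70 and 6.80, a mean of 6.61 ± 0.251 (SD, n = 3). The 3 replicates were close to each other, and every one lay far above the median optimal peak. Copies of this stretch in the transgenic line were not counted here, and their part in the signal was not tested.

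Among the 1774 protein-coding genes that have an optimal peak away from Pol III genes and a value in all 3 replicates, Bdp1 held place 8 by mean ratio, at percentile 99.6. CG6565 has the same peak and the same values. Of 1435 optimal peaks at protein-coding 5' ends and not at Pol III genes, 8, 7 and 6 in replicates 1, 2 and 3 were higher than the Bdp1 peak. The signal at Bdp1 was also within the range of the Pol III genes themselves. The median ratio at the 236 optimal peaks on tRNA genes and other Pol III genes was 8.14, 7.92 and 6.51 in the 3 replicates, and 98 of 233, 105 of 235 and 119 of 233 of those peaks with a value were lower than the Bdp1 peak. The nearest Pol III gene, tRNA:Gln-CTG-4-1, is 636746 bp away.

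The Bdp1 peak sits closer to the neighbour than to Bdp1. Its summit is 102 bp upstream of the nearest Bdp1 5' end but 27 bp upstream of the first 5' end of CG6565 (FBgn0032513), a gene that starts 129 bp from Bdp1 on the other strand. The replicate summits lay 129, 101 and 148 bp upstream of Bdp1, which puts them at 0 bp, 28 bp upstream and 19 bp downstream of the CG6565 5' end. CG6565 has a further 5' end within reach of the peak, with the optimal summit 185 bp upstream of it, and Bdp1 has a second 5' end 168 bp from the summit. The replicate peaks were 183, 344 and 194 bp wide, all narrower than the median peak of their lists (430, 404 and 380 bp). Most other relaxed peaks at the 8 genes had exactly the median width, those of La in all 3 replicates among them. How the widths were set is not given in the sources used here. A peak counted only for the gene whose 5' end is nearest to its summit is therefore given to CG6565 and not to Bdp1.

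Brf (FBgn0038499, chr3R:17374833-17391337, minus strand), the subunit that in yeast contacts the polymerase, had the next strongest promoter peak, at chr3R:17391347-17391532, pooled signal 390 and rank 352. The relaxed peak that contains its summit had a signal of 98.6 in replicate 1, 123 in replicate 2 and 62.1 in replicate 3, at ranks 459, 499 and 1123. The ratios to the median optimal peak were 2.27, 2.19 and 1.24, a mean of 1.90 ± 0.571 (SD, n = 3). All 3 were above 1, and replicate 3 was the lowest. In replicate 3 a stronger peak in the same window had its summit 84 bp upstream of Brf and did not contain the optimal summit. Its signal was 175, rank 253 and ratio 3.51, and with it the mean for Brf is 2.66. Brf held place 262 of the 1774 genes, at percentile 85.3.

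The summit at Brf is 159 bp upstream of Brf and 98 bp upstream of sds22 (FBgn0028992), which encodes a regulatory subunit of protein phosphatase 1 and starts 257 bp from Brf on the other strand. The summits of the replicate peaks behind the signal values lay 160, 139 and 285 bp upstream of Brf, the last of these 28 bp inside sds22. A second optimal peak, chr3R:17385654-17386049, lies within the Brf gene, 5485 bp downstream of the Brf 5' end and 39 bp upstream of a 5' end of lute. Its ratios were 0.721, 1.17 and 1.37, a mean of 1.09 ± 0.334 (SD, n = 3), at ranks 2690, 1236 and 961. The nearest Pol III gene to the Brf promoter is tRNA:Val-CAC-1-1, 226424 bp away.

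La (FBgn0011638, chr2L:20348393-20350012, minus strand) had a weak peak, chr2L:20349895-20350290, with a pooled signal of 96.0 at rank 2826, near the lower end of the optimal list. The signal at its summit was 34.1 in replicate 1, 21.2 in replicate 2 and 47.6 in replicate 3, at ranks 2375, 9226 and 1746. The ratios were 0.785, 0.377 and 0.952, a mean of 0.705 ± 0.296 (SD, n = 3). All 3 lay under the median optimal peak, and replicate 2 was the lowest. There, a stronger peak in the window had its summit 268 bp downstream of the 5' end, with a signal of 29.1, rank 4647 and ratio 0.517, which is also under 35.6, the weakest signal among the strongest peaks of that replicate as counted above. La held place 1462 of the 1774 genes, at percentile 17.6.

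La was the only gene of the 8 whose optimal summit was within 100 bp of its own 5' end (1 of 8, against 6.54% of all protein-coding genes). It was also the only one counted by the nearest 5' end, a rule that left out the ends of transposons (1 of 8, against 10.1%). The summit was 81 bp upstream, and the replicate summits were 43, 53 and 94 bp upstream. RtGEF, a guanine nucleotide exchange factor gene, starts 422 bp away on the other strand, and its 5' end is not under the peak. A 33 bp remnant of a transposon of the 1360 family (chr2L:20350107-20350139) lies under the peak, and 100% of the 32-base words of its sequence were found once in the genome. The annotated 5' end of the remnant was 46 bp from the optimal summit, nearer than that of La. It was 84, 74 and 33 bp from the summits of replicates 1, 2 and 3, nearer than La in replicate 3 only. The nearest Pol III gene, tRNA:Leu-TAA-3-1, is 5217623 bp away.

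**Figure D2:**
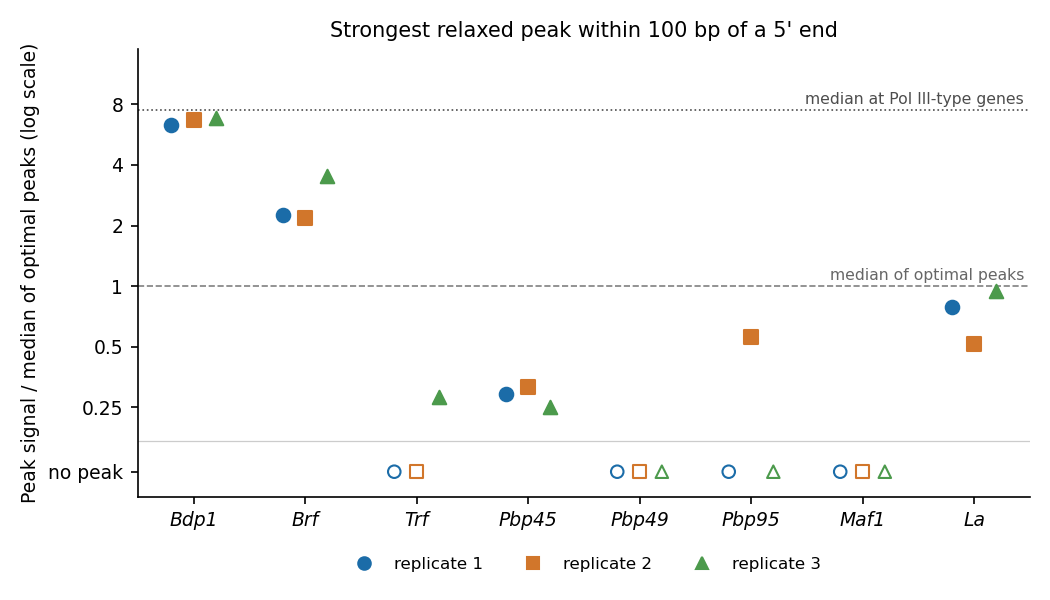
Signal of the strongest relaxed peak within 100 bp of a 5' end, divided by that replicate's median over the optimal peaks (log axis), for the 8 genes and 3 replicates; open symbols at the foot mark windows with no relaxed peak. The dashed line is the median optimal peak and the dotted line the mean over the replicates of the median at Pol III genes, 7.52; Bdp1 lies between 6.32 and 6.80 in all 3 replicates and the Pbp49 and Maf1 windows have no peak.

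By mean ratio the order was Bdp1, Brf, La, and neighbours in this order were compared. The same values thus set the pairs and their direction, so the p below is no independent test of the order. The log2 ratio of Bdp1 over Brf was 1.48, 1.61 and 2.45 in replicates 1, 2 and 3, a mean of 1.85 ± 0.53 (SD, n = 3), or 3.60-fold. That of Brf over La was 1.53, 2.54 and 0.38, a mean of 1.48 ± 1.08 (SD, n = 3), or 2.80-fold. Each difference was positive in 3 of 3 replicates, with an exact two-sided sign-flip permutation p of 0.25 for each, the smallest that 3 replicates allow. With 2 differences compared, Benjamini-Hochberg adjustment leaves 0.25 for both. Each mean exceeded its SD over the replicates, and in replicate 3 the step from Brf to La was small. All replicate 3 values of Brf in this paragraph rest on the peak that contains its optimal summit (ratio 1.24). The stronger peak in the same window (ratio 3.51) does not enter them. With the strongest peak in each window, the mean log2 ratio was 1.35 for Bdp1 over Brf and 1.83 for Brf over La. Of the Pol III gene peaks, 41, 43 and 21 were lower than the Brf peak in replicates 1, 2 and 3, and 5, 1 and 11 were lower than the La peak. Of the 1435 protein-coding peaks, 148, 130 and 518 were higher than the Brf peak, and 906, 1321 and 848 were higher than the La peak.

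**Figure D3:**
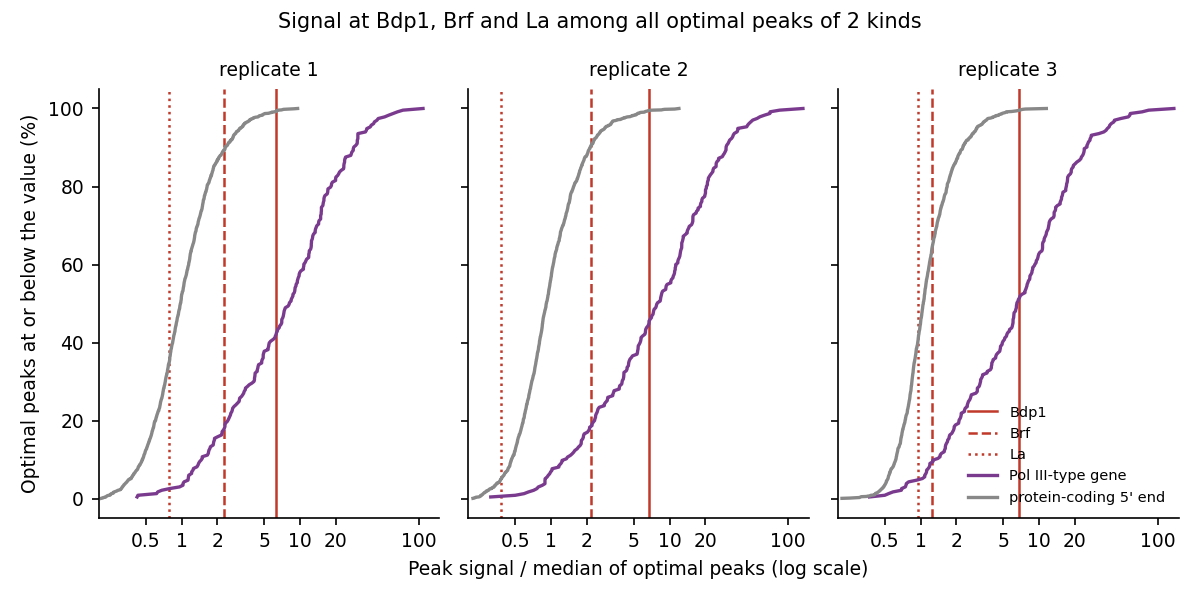
Signal over the median optimal peak (log axis) of Bdp1, Brf and La (vertical lines) in each replicate, with the cumulative share (vertical axis, %) of the optimal peaks at Pol III genes and at protein-coding 5' ends. Bdp1 lies at the upper end of the protein-coding curve and near the middle of the Pol III curve in each replicate, and La left of the middle of the protein-coding curve.

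Trf (FBgn0010287, chr2L:8072895-8073948, plus strand), the third TFIIIB subunit, had no optimal peak. Its window held no relaxed peak in replicates 1 and 2, and in replicate 3 a peak with a signal of 14.1, rank 16171 and ratio 0.282, whose summit was 106 bp upstream. This is under 32.1, the weakest signal among the strongest peaks counted in that replicate. MED20, a Mediator subunit gene, starts 47 bp from Trf in the other direction, so the closeness of 2 divergent 5' ends is shared by Trf with Bdp1 and Brf. Weak relaxed peaks lay further upstream, with summits 912, 634 and 824 bp from the Trf 5' end in replicates 1, 2 and 3, at ranks 3984, 6307 and 5523. The nearest optimal summit is 9308 bp from the Trf 5' end, and the nearest Pol III gene, tRNA:Gly-GCC-1-3, 200046 bp.

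None of the 3 genes of the PBP complex had an optimal peak, against 13.7% of all protein-coding genes. None had a peak among the strongest of replicates 1, 2 or 3, against 13.2%, 11.5% and 15.1% of all genes. Pbp45 (FBgn0038371, chr3R:15838146-15839515, minus strand) had a weak relaxed peak in every replicate, with signals of 12.7, 17.9 and 12.6 and ratios of 0.293, 0.317 and 0.252. Its ranks, 14286, 13704 and 20697, lie deep in the lists, and the summits were 295 bp downstream, 1 bp upstream and 189 bp upstream of the 5' end. Weaker peaks in the same window had summits 26 bp upstream in replicate 1 and 204 bp upstream in replicate 2, and the pooled list had summits 9 bp downstream and 202 bp upstream. Pbp95 (FBgn0037540, chr3R:8013791-8016610, plus strand) had a relaxed peak in the window in replicate 2 only, with a signal of 31.5, rank 4023, ratio 0.560 and a summit 255 bp upstream. Outside the window, replicates 1 and 3 each had a summit 449 bp upstream of Pbp95, at ranks 5836 and 2873.

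Pbp49 (FBgn0260398, chr2R:8129354-8131323, minus strand) had no relaxed peak in its window in any replicate, though Pabp2, the nuclear poly(A)-binding protein gene, starts 108 bp away on the other strand. Its 5' end is shared in the annotation with CG42516. Relaxed peaks inside the gene were weak, with the strongest at rank 22407 in replicate 1, 13030 in replicate 2 and 7075 in replicate 3. The nearest optimal summits were 46863 bp from Pbp45, 14943 bp from Pbp49 and 12358 bp from Pbp95. The nearest Pol III genes were tRNA:Phe-GAA-1-8 at 481888 bp from Pbp45, tRNA:Ile-AAT-1-2 at 27132 bp from Pbp49 and tRNA:Asn-GTT-1-10 at 125815 bp from Pbp95. With no input coverage used here, the lists show only that no peak was called, not that Bdp1 is absent.

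Maf1 (FBgn0267861, chr2R:1512810-1527095, minus strand) had no relaxed peak at any of the 4 5' ends of its 5 transcripts in any replicate. Relaxed peaks within the gene were weak, the strongest at rank 5436 in replicate 3, and replicate 2 had none. The nearest optimal summit was 4490567 bp away and the nearest Pol III gene, tRNA:Arg-ACG-1-1, 4615070 bp. Around the outermost 5' end of Maf1 100% of the 32-base words were found once in the genome. At the 5' end 10265 bp further in the share was 0%, and at that 5315 bp further in 71.8%, so words of that length have no single place in the genome there, or only in part. For the other 7 genes it was 100%, as for 95.9% of all protein-coding genes.

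**Figure D4:**
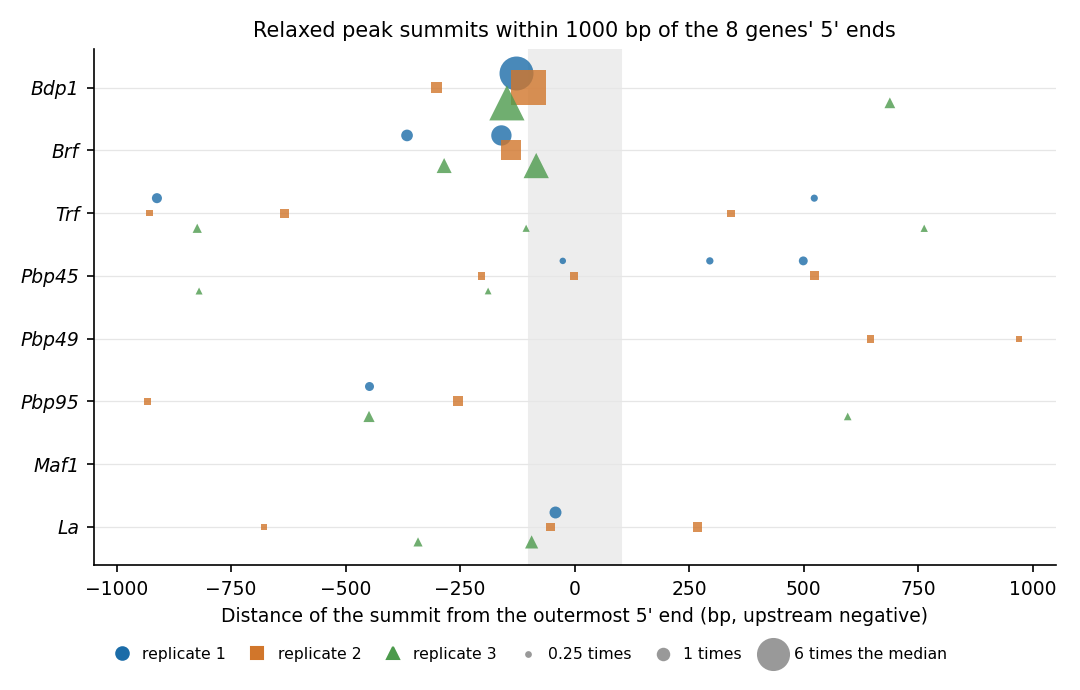
Summits of relaxed peaks up to 1000 bp from the outermost 5' ends of the 8 genes (horizontal axis, bp, upstream negative), by replicate; the area of a symbol is proportional to its signal over the median optimal peak, and grey marks the 100 bp on either side. The large symbols at Bdp1 and the smaller ones at Brf lie just upstream in all 3 replicates, and Maf1 has no summit in the range.

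The 3 genes with a peak all have a close neighbour that starts in the opposite direction. Within 500 bp, 5 of the 8 genes had such a partner (Bdp1, Brf, Trf, Pbp49 and La), against 26.4% of all protein-coding genes. Among those 5 genes, 3 had an optimal peak, against 30.0% of all genes with a partner (1107 of 3687). Of Pbp45, Pbp95 and Maf1, whose nearest divergent 5' ends were 7019, 590 and 63389 bp away (CG4546, CG10435 and BckdhB), 0 of 3 had an optimal peak, against 7.84% of all genes without a partner (806 of 10281). Trf and Pbp49, with partners at 47 and 108 bp, had none. The part of the gene arrangement in these counts was not tested.

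**Figure D5:**
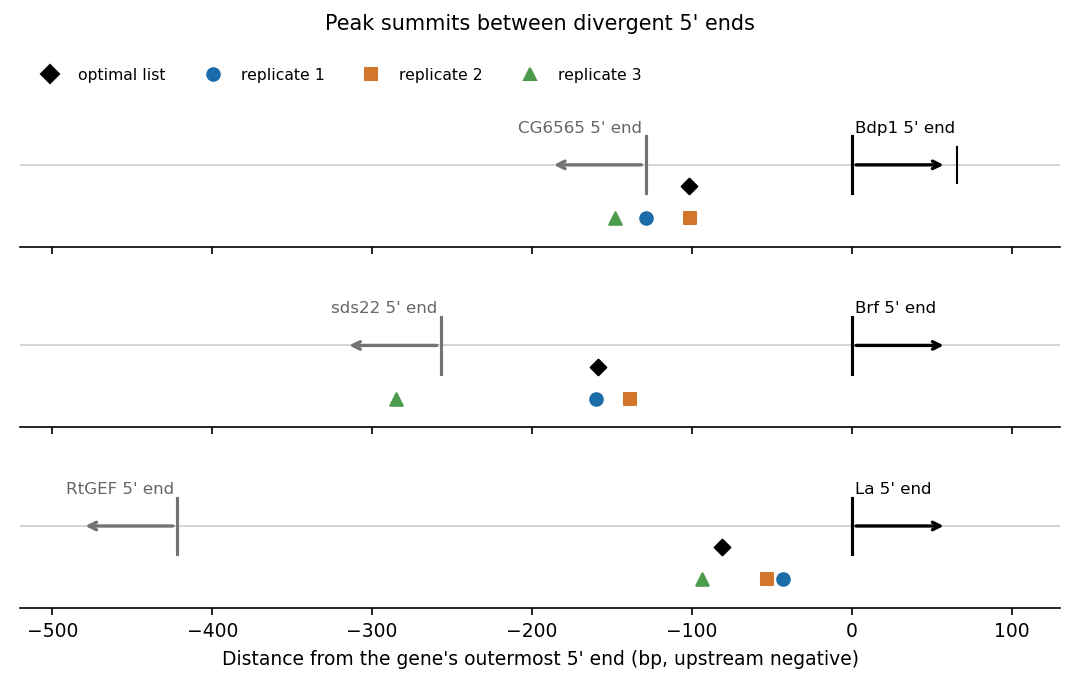
Positions of the peak summits at Bdp1, Brf and La (horizontal axis, bp from the outermost 5' end, upstream negative), in the optimal list and in the relaxed peak behind each replicate's signal value; bars with arrows mark 5' ends and directions of transcription, and the smaller bar a second Bdp1 5' end. The Bdp1 summits lie around the CG6565 5' end, the optimal Brf summit lies between the 2 genes, and the La summits lie within 94 bp of La.

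No gene of 4 related lists had a peak as strong as that of Bdp1. Of 10 genes for Pol III-specific subunits, 2 had an optimal peak, against 13.7% of all protein-coding genes. An optimal peak was then required among the strongest of the remaining replicates. The count was 0 without replicate 1 (against 9.10% of all genes), 1 without replicate 2 (9.83%) and 1 without replicate 3 (7.95%). Polr3E had ratios of 1.46, 0.683 and 0.492, a mean of 0.880 ± 0.514 (SD, n = 3). Its mean lay under the median optimal peak, and in replicate 3 no relaxed peak reached the Polr3E window itself. Polr3D had a weak relaxed peak in every replicate, with ratios of 0.346, 0.360 and 0.393. Polr3A, Polr3C, Polr3I and Polr3K had no relaxed peak in their windows in any replicate, 4 of 10 genes, against 43.4% of all protein-coding genes.

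Of 7 genes for subunits that Pol III shares with other polymerases, 2 had an optimal peak, against 13.7% of all genes. Polr2F had ratios of 1.46, 1.95 and 2.42, a mean of 1.94 ± 0.482, and Polr2H 1.73, 2.17 and 2.44, a mean of 2.11 ± 0.356 (SD, n = 3 each). The replicate values of both overlap those of Brf. Tbp, the TATA-binding protein, and Trf2, its other relative, had no optimal peak (0 of 2, against 13.7% of all genes), and Trf2 reached rank 2201 in replicate 3. Of 3 La-related genes, 2 had an optimal peak, against 13.7% of all genes. The count was 0 without replicate 2 (against 9.83% of all genes) and without replicate 3 (7.95%). Larp7, which binds 7SK RNA, had ratios of 0.632, 0.850 and 1.05, a mean of 0.845 ± 0.210, and larp, a regulator of translation, had 0.496, 1.29 and 1.71, a mean of 1.17 ± 0.618 (SD, n = 3 each). Both overlap the values of La, and neither was among the strongest peaks of replicate 1.

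Among 1790 genes with an optimal peak at a 5' end and a value in all 3 replicates, those whose 3 log2 ratios lay nearest to each gene were named. For Bdp1 the nearest was CG6565, with the same peak, and then CHMP2B and Tcs5, which share a peak, at a Euclidean distance of 0.134 and a mean ratio of 6.59 ± 0.473 (SD, n = 3). CHMP2B encodes an ESCRT-III subunit and Tcs5 a factor of tRNA modification. For Brf it was sds22, with the same peak, and then P5CDh1 at a distance of 0.272 (1.72 ± 0.408). For La it was chb, which encodes the microtubule-binding protein CLASP, at a distance of 0.0926 (0.708 ± 0.314), and CG15701 at 0.225 (0.662 ± 0.228). With 3 values a gene, such likeness describes the level more than a pattern.

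None of 6 promoter motifs was shared by Bdp1, Brf and La. Motifs were searched on both strands in the 250 bases before and 50 after the outermost 5' end of 6 of the genes, and in the same window of all 13968. Sequence matches at Maf1 and Pbp49 are not reported here, so the counts are of the other 6 genes. The B box of tRNA genes (GGTTCGA, 2 bases of any kind, CC) was in none of the 6, against 0.200% of all promoters. The DRE (TATCGATA) was at Pbp95 alone, 23 to 16 bases upstream, against 9.36% of all promoters. The E-box (CACGTG) was at La alone, 34 to 39 bases downstream, against 4.20%. The letters TATAAA were found at Bdp1 and Pbp45, against 45.8%; at Bdp1 they read on the strand of CG6565, and the copy 20 to 15 bases upstream of Bdp1 is in the stretch printed above. The core of Ohler motif 1 (GGTCACAC) was at Trf alone, 61 to 54 bases upstream on the other strand, against 7.69%, and GAGAG was in none, against 29.7%. With 100 bases on each side of the 5' end, GAGAG was at Pbp45, against 22.4% of all promoters, and TATAAA at Bdp1, Pbp45 and Trf, against 29.1%. Brf held none of the 6 motifs. The G and C content of the promoter window was 30.7% at Bdp1, 33.0% at Brf, 36.7% at La, 43.3% at Trf, 29.7% at Pbp45, 34.3% at Pbp49, 32.7% at Pbp95 and 32.0% at Maf1, against a median of 38.0% over all genes. Only Trf was above that median. A match is a description of letters, not a site, and a missing match says nothing of the factor.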

How the data were processed

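Whole-embryo Bdp1-GFP ChIP-seq was measured in 3 biological replicates, per the labels. The value used is the peak signal (narrowPeak column 7) as the authors deposited it, in the dm6 relaxed lists of each replicate and of the pooled replicates, for which the deposited text names a control alignment, and in the optimal list thresholded by irreproducible discovery rate. The sources used here do not name the aligner, the caller, the filters or the threshold. As the lists carry no read totals, depth is unknown. The other 5 lists, on dm3, were not used, and 0 per-sample columns were without a sample. In each replicate a peak took the highest signal among relaxed peaks containing the optimal summit, over the median of the optimal peaks valued likewise. Genes came from Ensembl release 115 (BDGP 6.54), coordinates are 1-based, and Pol III genes are 400 nuclear genes for tRNA, 5S, U6, U6atac, 7SK, 7SL and RNase P and MRP RNAs. Scripts used Python 3.11.15, numpy 2.4.6, pandas 2.3.3 and scipy 1.17.1, and the overlap code was checked on simulated peaks. The members, gene lists and naming rule were chosen with earlier results of these data known; the rule named all 8 genes, list genes with an optimal peak, genes with a 5' end at a counted peak, the nearest Pol III gene and the 2 genes nearest in signal. Other genes that the text names, such as neighbours further off and list genes without a peak, were added after their values were seen. The values of 1 list gene are not reported here. The alternatives were other windows, overlap rules, peak sets, scalings and each replicate left out.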

Additional observations from a re-analysis of the deposited data

How the results depend on the processing

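Of 138 alternatives, 0 reversed a result, 24 moved it and 114 kept it. Counts were kept within 1.5 times, and signals and summit positions within 1 SD between replicates. Differences between genes were kept if the sign stayed, and percentile ranks of signal if the order of the genes stayed. Only differences and summit positions could be reversed, so for all other results 0 was fixed in advance. Dividing by another median cannot change a difference between genes, as the median cancels. Counted by a summit within 100 bp, the members with an optimal peak came to 1 (La), against 6.54% of all genes. By the nearest 5' end, with transposon ends left out, they also came to 1 (La), against 10.1%. By either rule the mean per replicate was 1, from 1 (La), 0 and 2 (Brf and La) in replicates 1, 2 and 3. Without 1 replicate the members came to 2 to 3, with La lost without replicate 1 (2, against 9.10% of all genes) and without replicate 3 (2, against 7.95%) and kept without replicate 2 (3, against 9.83%); among the 1603 strongest optimal peaks (6.80% of all genes), and with every replicate required (7.46%), they were Bdp1 and Brf. The mean per replicate was 2 with a 50 bp window or with 0.5 times as many peaks, and 3.33 with 2 times as many. For Pol III-specific subunits the count of 2 became 0 by a summit within 100 bp (against 6.54% of all genes) and among the 1603 strongest (6.80%). It was also 0 with a strongest peak required in every replicate (7.46%), and 0 to 1 without 1 replicate (0 without replicate 1, against 9.10%). For shared subunits 2 became 1 with a window of 50 bp (against 12.5% of all genes), by a summit within 100 bp (6.54%) and by the nearest 5' end (10.1%). For La-related genes 2 became 1 by a summit within 100 bp (against 6.54% of all genes) and among the 1603 strongest (6.80%), and 0 with every replicate required (7.46%). Without 1 replicate it was 0 to 2 (0 without replicate 2, against 9.83%, or replicate 3, against 7.95%). The cause was not tested. No paired analysis was possible because all samples form 1 group, and the differences between genes are already taken within each replicate. Limits: 3 replicates of 1 line, no read totals, no untagged or input values used here, and signals comparable only within a list.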
